A study of Mus musculus with 5 samples.

Results

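The semaphorin, plexin, Eph receptor and ephrin genes are a set of 51 protein-coding genes, taken by symbol from the RefSeq gene table of mouse build GRCm38, among 21521 such genes. They were described by the binding sites of EBF1, a transcription factor required for B-cell development, in pro-B cells, an early stage of the B lineage. The deposited list came from EBF1 chromatin immunoprecipitation (ChIP-seq) in cells carrying wild-type EBF1, and it gave 7494 sites on 20 chromosomes, each 300 bp wide. Each site went to the protein-coding gene that held its centre (the shortest, where several did), or else to the nearest such gene within 100 kb. By this rule 50 of the 7082 assigned sites fell to 21 of the 51 genes.

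Of the 5 libraries in the series, this was the only one that entered with a file. Its cells were fetal liver cells of genotype Ebf1-/- into which wild-type EBF1 had been brought by transduction. The labels name neither the vector nor a clone. The libraries not analysed here were EBF1 ChIP with the EBF1 form YmA, BRG1 ChIP with YmA, and the inputs for the EBF1 and BRG1 ChIPs, and all of them share the Ebf1-/- background. The list holds positions and a class for each site but no height, score or p-value, so neither site strength nor depth is known, and the lack of a site at a gene does not show that EBF1 was absent there. With 1 library there is no replicate, and no site, share or count below carries a replicate error. No expression was measured. The cell label could therefore not be checked against marker levels. A site was found at 7 of 7 genes of the pre-B receptor and early B lineage (Cd79a, Cd79b, Igll1, Vpreb1, Vpreb3, Pax5 and Blnk), against 19.6% of all protein-coding genes. This count describes EBF1 sites and is no test of the cell label.

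The authors placed each site in 1 of 3 classes named CTD-ind, YmA-ind and YmA-dep. The sources used here do not say how the classes were made, and the names serve as labels only. The interval after a share is the exact 95% binomial interval (Clopper-Pearson), which covers counting error alone.

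Semaphorins are secreted or membrane-bound guidance proteins, and plexins are their main receptors, which act on small GTPases and the cytoskeleton through their cytoplasmic part. Eph receptors are receptor tyrosine kinases bound by ephrins on neighbouring cells. Ephrin-A proteins are held in the membrane by a lipid anchor and ephrin-B proteins span it, so that signals can pass into both cells. First known from axon guidance, these families also act in blood vessels and in immune cells. Among them, Sema4d (CD100) is found on lymphocytes and binds Plxnb1 and, on B cells, Cd72, and Sema7a binds Plxnc1 and integrins of the beta1 group.

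Promoter windows were looked at first, since they are the parts of these loci for which sequence was at hand. A window ran from 250 bases before to 50 bases after an annotated start (RefSeq, GRCm38.p6), and 45 of the 51 genes had 59 windows. No site overlapped any of the 59 windows (0%, interval 0 to 6.06%). A separate limit of 3 counts for a count of 0 among 59 was 5.08%. The share over all protein-coding genes was 2.75% (579 of 21045 windows), under both limits, so an absence of that size was within counting error. The site nearest to a start was a YmA-ind site 887 bp downstream of the start of Plxna3, a plexin gene on chromosome X (74329804 to 74330103).

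The palindromic core of the EBF motif, CCCNNGGG, which reads the same on both strands, was present in 14 of the 59 windows (23.7%, 13.6 to 36.6%) and in 15.8% of all protein-coding windows. Members with an assigned site had it in 7 of 29 windows and members without one in 7 of 30. Over all protein-coding genes, it stood in 270 of the 579 windows that overlapped a site (46.6%, 42.5 to 50.8%). A longer form, in which the core has a T before it and an A after it, was present in 2 of the 59 windows and in 0.965% of all protein-coding windows. These 2 belong to Plxnb1, at 160 to 151 bases before the start, and Sema4b, where it covers bases 20 to 29 counted from the start. A match is a description of the letters and not a bound site. The 250 bases before the start are given for 5 genes, 5′ to 3′ on the plus strand, with each match to CCCNNGGG in capitals. Sema7a and Ephb4 are shown because their loci hold runs of sites, Plxna3 because its site lay nearest to a start, Plxnb1 for the longer motif, and Sema3g because its sites lie on both sides of the gene.
Sema7a: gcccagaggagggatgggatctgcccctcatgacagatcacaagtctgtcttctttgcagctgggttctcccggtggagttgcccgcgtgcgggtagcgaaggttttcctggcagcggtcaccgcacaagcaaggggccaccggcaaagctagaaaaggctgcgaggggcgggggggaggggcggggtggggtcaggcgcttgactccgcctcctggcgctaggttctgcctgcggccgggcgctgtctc
Ephb4: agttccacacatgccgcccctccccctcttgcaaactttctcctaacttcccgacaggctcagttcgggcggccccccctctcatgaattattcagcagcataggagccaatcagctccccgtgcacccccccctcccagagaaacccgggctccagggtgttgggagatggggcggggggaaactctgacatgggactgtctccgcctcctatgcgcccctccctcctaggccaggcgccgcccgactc
Plxnb1: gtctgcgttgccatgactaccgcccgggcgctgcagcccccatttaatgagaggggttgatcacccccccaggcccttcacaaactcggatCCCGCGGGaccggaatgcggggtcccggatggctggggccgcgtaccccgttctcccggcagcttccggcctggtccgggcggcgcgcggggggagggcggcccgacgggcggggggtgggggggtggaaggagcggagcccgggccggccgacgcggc
Plxna3: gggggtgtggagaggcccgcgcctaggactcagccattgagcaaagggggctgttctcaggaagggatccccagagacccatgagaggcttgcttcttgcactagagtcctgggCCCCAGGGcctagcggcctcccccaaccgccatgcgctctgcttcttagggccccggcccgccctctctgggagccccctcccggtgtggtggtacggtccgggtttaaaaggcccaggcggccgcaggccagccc
Sema3g: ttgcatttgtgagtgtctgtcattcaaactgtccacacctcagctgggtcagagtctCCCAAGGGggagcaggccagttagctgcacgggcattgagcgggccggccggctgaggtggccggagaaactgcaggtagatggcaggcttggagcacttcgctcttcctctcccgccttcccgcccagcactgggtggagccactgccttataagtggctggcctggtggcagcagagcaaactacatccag
The windows of Sema7a (chr9:57939862-57940111) and Ephb4 (chr5:137349859-137350108) held no match in these bases. Plxnb1 (chr9:109095186-109095435), Plxna3 (chrX:74328816-74329065) and Sema3g (chr14:31217623-31217872) held 1 match each.

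Semaphorin and plexin genes held most of the 50 sites. Of 20 semaphorin genes 7 had a site, with 22 sites in all, and of 9 plexin genes 7 had a site, with 17 sites. Of 14 Eph receptor genes 5 had a site (9 sites), and of 8 ephrin genes 2 had a site (2 sites). Together 21 of 51 genes (41.2%, 27.6 to 55.8%) had a site, against 19.6% of all protein-coding genes. The genes were brought together with site counts of these data in view, so this share is a description and was not tested. Integrin and chemokine receptor genes, another group of 51 genes for surface and guidance receptors, had 30 sites at 16 genes (31.4%, 19.1 to 45.9%), and the interval overlaps that of the guidance genes.

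Over the whole gene table, longer genes had a site more often, with 9.70% of genes under 10 kb and 34.7% of genes over 150 kb. The 51 genes had a median span of 29.0 kb, against 17.4 kb for all protein-coding genes. Among genes spanning 10 to 50 kb, 12 of 27 members had a site (44.4%, 25.5 to 64.7%), against 20.9% of all genes of that span. Above 150 kb, 7 of 16 members had one (43.8%, 19.8 to 70.1%), against 34.7% of all genes of that span. Below 10 kb and from 50 to 150 kb, 1 of 4 members had a site in each group, against 9.70% and 31.7% of all genes. If each member had a site as often as all genes of its span group, 12.9 of the 51 would have one (25.2%). Counted inside genes and per length, the 51 genes held 4.28 sites per Mb of gene span and all protein-coding genes held 4.03, which are close. Within the set this density was uneven. It was 85.9 sites per Mb at Sema7a (2 sites in a short gene), 39.5 over the 6 Sema4 genes and 10.3 over the 9 plexins, against 3.21 over the Efna genes, 1.78 over the Sema3 genes, 1.47 over the Ephb genes, 1.45 over the Epha genes and 1.36 over the Sema6 genes. The Sema5 and Efnb genes held no site. Of the 9 sites inside Sema4 genes, 5 lay in Sema4d and 3 in Sema4b, and 3 of the 6 genes had no site. The families also differ in span, with medians of 26.6 kb for Sema4, 40.5 kb for the plexins, 155 kb for Sema3 and 148 kb for Epha. The medians were 24.4 kb for Ephb, 13.0 kb for Efnb, 9.22 kb for Efna and 71.6 kb for Sema6. No density of all genes of like span was counted, and whether the differences are a trait of the families was not tested.

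**Figure D1:**
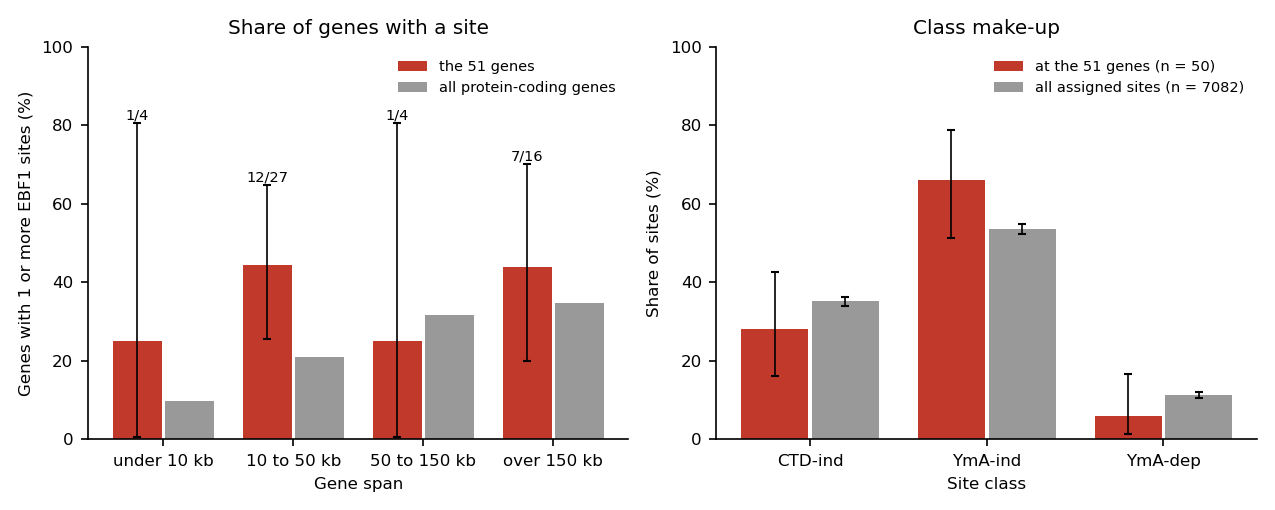
Left, share of genes with 1 or more EBF1 sites (%) by gene span, for the 51 guidance genes (red, with members with a site over members) and all protein-coding genes (grey). Right, share of sites (%) in each class at the 51 genes (red) and over all assigned sites (grey). Error bars are exact 95% binomial intervals, drawn for red bars on the left and for both on the right. The red bar is above the grey one under 10 kb, at 10 to 50 kb and over 150 kb, and below it at 50 to 150 kb. The groups under 10 kb and at 50 to 150 kb hold 4 members each. YmA-ind is the tallest class in both sets.

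Under the 100 kb rule, sites were concentrated in a few genes. Plxna1 had 8, Sema4d and Sema7a had 6 each, and these 3 genes held 20 of the 50 sites. Epha2, Plxnc1, Sema3g and Sema4b had 3 each. Sema4a, Plxnd1, Epha6 and Ephb4 had 2 each, and the other 10 genes had 1. At least 3 sites were found at 7 of 51 genes (13.7%), against 2.99% of all protein-coding genes, and 5 or more at 3 genes, against 0.869%. These shares were not counted for genes of like span. The set was made with site counts in view, so they are a description and were not tested. The order depended on the rule, since with sites inside or within 10 kb Sema4d had 6 and Plxna1, Sema7a and Ephb4 had 5 each, and by nearest start Ephb4 had 8, Sema4d 5 and Sema7a 3.

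**Figure D2:**
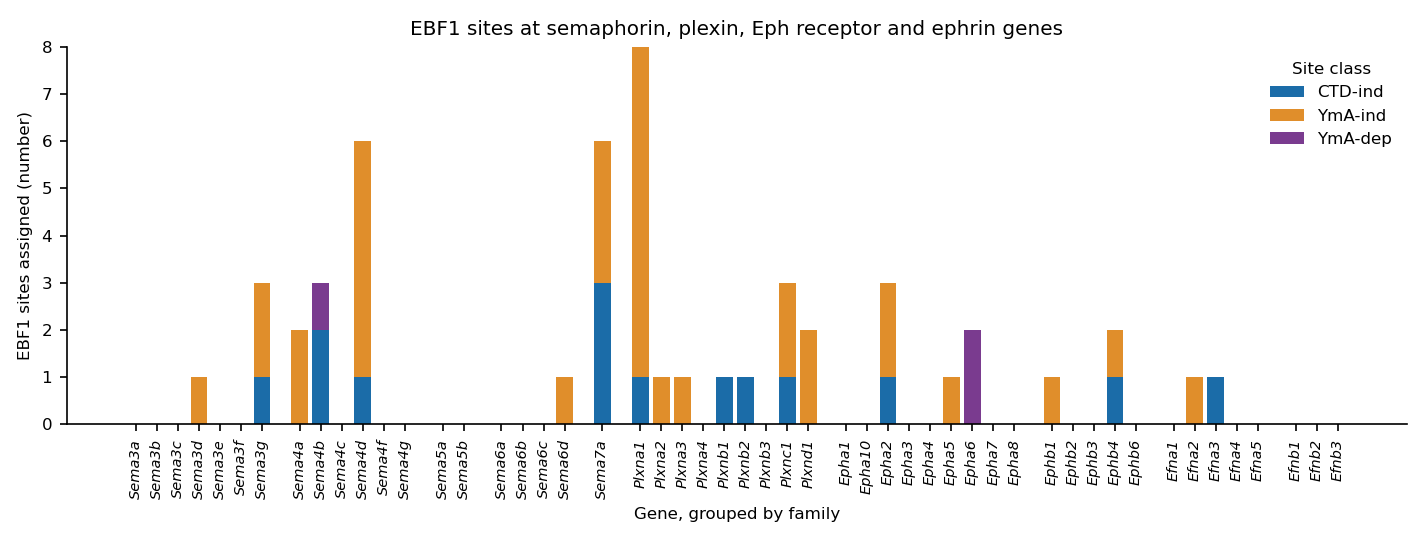
Number of EBF1 sites assigned to each of the 51 genes (bars, coloured by site class), with genes grouped by family on the horizontal axis. Plxna1 has the tallest bar with 8 sites, Sema4d and Sema7a follow with 6, and the Sema5 and Efnb families have none.

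Among the ligands, Sema7a had the densest run of sites. Sema7a encodes a semaphorin held by a lipid anchor and found on lymphoid cells, and spans 23.3 kb on chromosome 9 (57939596 to 57962865). Its 6 sites formed a run, defined as at least 3 sites with each gap under 0.5 times 25 kb. The run covered 27.9 kb, with gaps of 0.632 to 11.6 kb. Inside the gene were a YmA-ind site 5.89 kb from the start (57945854 to 57946153) and a CTD-ind site 15.4 kb from it (57955402 to 57955701). Downstream of the gene followed a YmA-ind site at 4.56 kb (57967274 to 57967573), CTD-ind sites at 7.12 kb (57969837 to 57970136) and 9.76 kb (57972472 to 57972771), and a YmA-ind site at 10.7 kb (57973404 to 57973703). The 2 classes were mixed along the locus, with 3 sites of each. The next gene on that side, Cyp11a1, was 24.5 kb beyond the last of these sites, and the space between the genes held 4 of the 6 sites assigned to Sema7a.

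Sema4d spans 108 kb on chromosome 13 (51685529 to 51793678) and encodes the lymphocyte semaphorin CD100. Its 6 sites were spread over the locus, 5 of them inside, and none fell in a run of that kind. Its 1 CTD-ind site (51736190 to 51736489) was centred 3.11 kb downstream of the nearest of 3 annotated starts. The 5 YmA-ind sites included one 1.92 kb upstream of an annotated start (51758454 to 51758753), one 3.20 kb upstream of another (51742501 to 51742800), and one 7.45 kb beyond the upstream end of the gene (51800978 to 51801277). The remaining YmA-ind sites were 52.2 kb downstream (51687054 to 51687353) and 21.9 kb upstream (51778406 to 51778705) of the nearest start.

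The other Sema4 genes differed in class. Sema4b, a membrane semaphorin gene on chromosome 7, had 3 sites, all inside. These were CTD-ind sites 5.54 kb (80192262 to 80192561) and 2.62 kb (80201059 to 80201358) downstream of the nearest start and a YmA-dep site 15.6 kb downstream (80214075 to 80214374). Sema4a, a semaphorin gene active in immune cells, had YmA-ind sites only, one 1.56 kb downstream of a start (88454051 to 88454350) and one 9.76 kb upstream of the gene on chromosome 3 (88470794 to 88471093). The upstream site was 10.2 kb from the next gene, Lmna, and so lay nearly midway between the genes. Sema4c, Sema4f and Sema4g had no assigned site.

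Among the secreted Sema3 genes, Sema3g had 3 sites and Sema3d had 1. Sema3g, a short gene of 12480 bp on chromosome 14 (31217873 to 31230352), had a YmA-ind site 1.81 kb upstream (31215910 to 31216209), a YmA-ind site inside (31228307 to 31228606) and a CTD-ind site 2.36 kb downstream (31232561 to 31232860). Together they formed a run of 17.0 kb. Sema3d had 1 YmA-ind site, at 95.6% of its 206 kb span (12579735 to 12580034 on chromosome 5). Sema6d, a membrane semaphorin gene, had 1 YmA-ind site 5.67 kb upstream of an internal start (124647758 to 124648057 on chromosome 2). No site was assigned to Sema3a, Sema3b, Sema3c, Sema3e, Sema3f, Sema5a, Sema5b, Sema6a, Sema6b or Sema6c.

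Among the receptors, Plxna1, which encodes a plexin used with neuropilins by Sema3 ligands, had the most sites under the 100 kb rule. With sites inside or within 10 kb it had 5, as many as Ephb4. It is not counted by nearest start, having no start in the table used. It spans 46.3 kb on chromosome 6 (89316313 to 89362613). Of its 8 sites, 7 were YmA-ind and 1 CTD-ind. A run of 4 YmA-ind sites lay below the lower end of the gene, at 28.0 kb (89288167 to 89288466), 19.8 kb (89296317 to 89296616), 7.90 kb (89308262 to 89308561) and 1.48 kb (89314685 to 89314984). A separate run of 3 lay inside, with the CTD-ind site (89337666 to 89337965) followed by YmA-ind sites (89349576 to 89349875 and 89355768 to 89356067). The eighth, a YmA-ind site 95.0 kb away (89221144 to 89221443), was the member site closest to the 100 kb limit. All 8 sites within 100 kb of Plxna1 were assigned to it, and the nearest site beyond the limit belonged to Sema6d, at 104 kb.

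Each of the other plexin genes with sites had 1 to 3. Plxnc1, the gene of the Sema7a receptor, spans 154 kb on chromosome 10 and had a YmA-ind site (94804042 to 94804341) and a CTD-ind site (94828523 to 94828822) inside, 141 and 116 kb downstream of the start, and a YmA-ind site 48.6 kb upstream of the gene (94993510 to 94993809). Plxnb1, the gene of the Sema4d receptor, had 1 CTD-ind site near its downstream end (109118195 to 109118494 on chromosome 9), 1.57 kb inside. Plxnb2 had 1 CTD-ind site 2.14 kb downstream of a start (89171663 to 89171962 on chromosome 15). Plxnd1, which encodes a receptor for Sema3e, had YmA-ind sites 8.06 kb downstream of the start (115986797 to 115987096 on chromosome 6) and 1.68 kb past the other end of the gene (115952987 to 115953286). Plxna2 had 1 YmA-ind site, inside the gene on chromosome 1 (194677912 to 194678211), and Plxna3 had the 1 near its start described above. Plxna4 and Plxnb3 had none. Of the pairs named here of a single ligand and its plexin or Eph receptor, both genes had sites for Sema7a with Plxnc1 and for Sema4d with Plxnb1. For Sema3e with Plxnd1 and for Efnb2 (ephrin-B2) with Ephb4, the receptor gene had sites and the ligand gene had none. Pairings outside these families, such as Sema4d with Cd72, are not in this count. A site was present at 41.2% of the 51 genes and at 7 of 9 plexin genes. The pairs are thus a description, and a link between the sites of ligand and receptor genes was not tested.

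**Figure D3:**
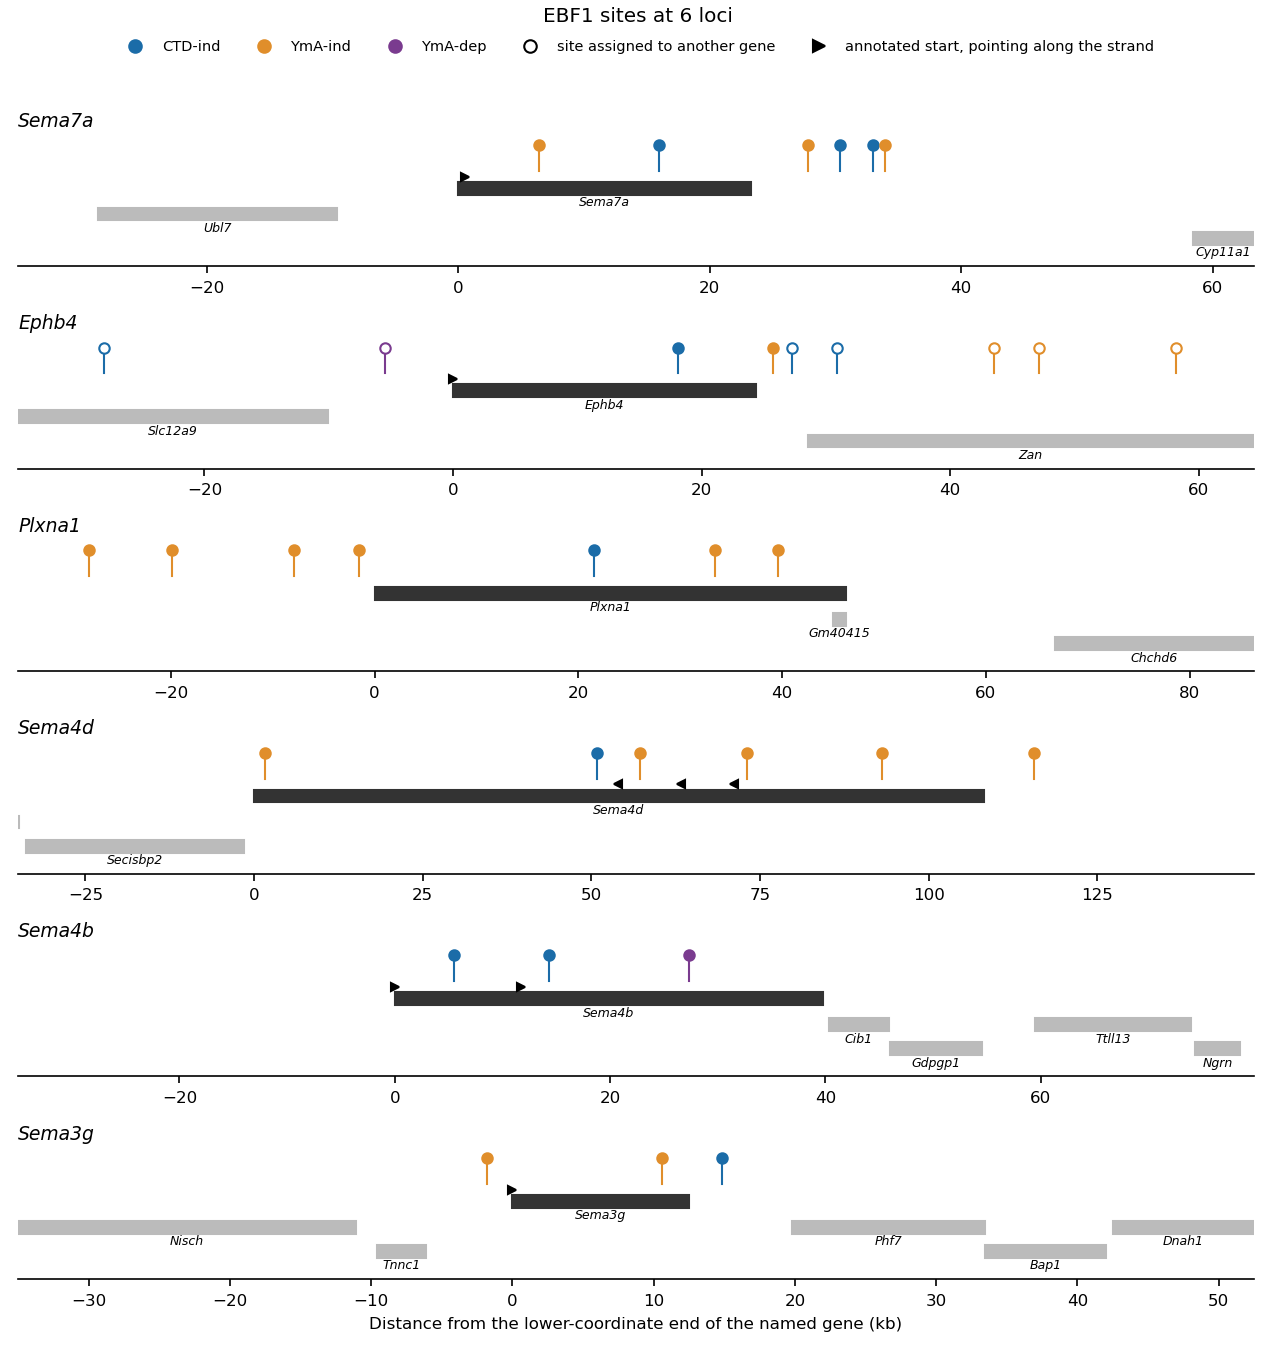
Maps of 6 loci, with the horizontal axis in kb from the lower-coordinate end of the named gene (black bar), neighbouring protein-coding genes as grey bars and each EBF1 site as a pin coloured by class. Filled pins are assigned to the named gene, open pins to a neighbour, and arrowheads mark annotated starts along the strand, where the promoter table holds them. Sema7a shows 4 filled pins past its downstream end, Plxna1 shows 4 YmA-ind pins before its lower end, and at Ephb4 most pins are open.

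Of the 14 Eph receptor genes 5 had a site, against 19.6% of all protein-coding genes. The 14 genes had a median span of 92.1 kb, and 31.7% of all genes spanning 50 to 150 kb had a site. The count at Ephb4 depended on how its neighbours were treated. Ephb4, the gene of the ephrin-B2 receptor of venous endothelium, spans 24.4 kb on chromosome 5 (137350109 to 137374522). It was assigned a CTD-ind site inside, 18.1 kb from the start (137368096 to 137368395), and a YmA-ind site 1.31 kb downstream (137375679 to 137375978). These were the first of a run of 7 sites over 40.3 kb, the other 5 of which were assigned to the adjoining gene Zan, known from sperm. Of those 5, CTD-ind sites lay 2.86 kb (137377231 to 137377530) and 6.46 kb (137380833 to 137381132) from Ephb4, and 3 YmA-ind sites lay 19.1 to 33.8 kb from it. On the other side, a YmA-dep site assigned to Slc12a9 stood 5.48 kb from Ephb4 and 4.56 kb from Slc12a9 (137344482 to 137344781). Within 100 kb of Ephb4 lay 15 sites in all, of which 2 were assigned to Ephb4. When each site in Ephb4 or up to 10 kb from it was counted, whichever gene was nearer, Ephb4 had 5. With sites given to the gene with the nearest annotated start within 100 kb, it had 8. The annotated start of Zan is at its far end from Ephb4.

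Epha2, an Eph receptor gene of epithelia on chromosome 4, had 3 sites, none inside. A CTD-ind site lay 1.52 kb upstream of its start (141299550 to 141299849), a YmA-ind site 19.7 kb upstream (141281326 to 141281625), and a YmA-ind site 9.63 kb downstream of the gene (141338865 to 141339164). Epha6, at 969 kb the longest of the 51 genes, had 2 YmA-dep sites whose centres were 1.37 kb apart on chromosome 16 (60391683 to 60391982 and 60393055 to 60393354). They were 214 and 212 kb downstream of its start, and the locus held no other site up to 100 kb on either side. Epha5 had 1 YmA-ind site inside (84368265 to 84368564 on chromosome 5) and Ephb1 had 1, 14.7 kb upstream (102369198 to 102369497 on chromosome 9). Epha1, Epha3, Epha4, Epha7, Epha8, Epha10, Ephb2, Ephb3 and Ephb6 had none.

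The ephrin genes had 2 sites. Efna3 had a CTD-ind site inside its 9.04 kb span, 6.05 kb from a start (89315566 to 89315865 on chromosome 3), and Efna2 had a YmA-ind site 9.70 kb downstream (80199564 to 80199863 on chromosome 10). Efna1 and Efna4, which neighbour Efna3, had no assigned site, and their nearest sites were 20.3 and 17.7 kb away. Efna5, Efnb1, Efnb2 and Efnb3 had none either. Of the 30 genes of the whole set without a site, 23 had no site of any gene within 100 kb, and the other 7 (Efna1, Efna4, Epha1, Sema3b, Sema4c, Sema4f and Sema6c) had 1 to 3 within that distance, assigned to neighbours.

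By class, the 50 sites were 33 YmA-ind (66.0%, 51.2 to 78.8%), 14 CTD-ind (28.0%, 16.2 to 42.5%) and 3 YmA-dep (6%, 1.25 to 16.5%). Over all assigned sites the shares were 53.6%, 35.1% and 11.2%, each inside the interval at these genes, so a difference in class make-up was not detectable with 50 sites. YmA-ind sites were found at 16 of 51 genes, against 12.2% of all protein-coding genes, CTD-ind sites at 11, against 9.32%, and YmA-dep sites at 2, against 3.26%. Epha2, Ephb4, Plxna1, Plxnc1, Sema3g, Sema4d and Sema7a had both CTD-ind and YmA-ind sites. The 3 YmA-dep sites lay inside Epha6 and Sema4b. Of the 21 sites outside genes, 17 were YmA-ind (81.0%, 58.1 to 94.6%), and of the 29 inside, 16 were YmA-ind (55.2%, 35.7 to 73.6%). These intervals overlap, and 5 of the 17 belonged to Plxna1. Among the 29 pairs of neighbouring sites at the same gene, 14 pairs were of 1 class.

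None of the 50 sites lay within 1 kb of an end of its gene, while 11 lay within 2.5 kb. Inside their gene lay 29 of the 50 (58.0%, 43.2 to 71.8%), against 59.6% of all assigned sites. Within 1 kb the count was 0 of 50, against 16.1% of all assigned sites. The exact interval was 0 to 7.11%, and the separate limit of 3 counts for a count of 0 was 6%. The class that is most often found at gene ends in the whole list also had none within 1 kb. Of 14 CTD-ind sites at these genes, 0 lay within 1 kb of an end (interval 0 to 23.2%), against 29.0% of all assigned CTD-ind sites. Within 2.5 kb lay 4 of the 14 (28.6%, 8.39 to 58.1%), against 40.3%, which is inside the interval. Of 33 YmA-ind sites, 0 lay within 1 kb (interval 0 to 10.6%), against 10.1%, which is also inside. The nearest sites to an end were those 1.31 kb past Ephb4, 1.48 kb from Plxna1 and 1.52 kb before Epha2. For all 50 sites, the share within 2.5 kb was 22.0% (11.5 to 36.0%), against 25.7%, and within 5 kb it was 24.0% (13.1 to 38.2%), against 35.5%. At both of these wider distances the share of all sites lay inside the interval. The median distance was 9.73 kb, against 10.2 kb. Measured from annotated starts, which were at hand for 42 of the 50 sites, 1 site (2.38%, 0.0603 to 12.6%), that of Plxna3, lay within 1 kb, against 16.8% of all assigned sites with a start. Sites of 1 gene are not independent of each other, and no test was made.

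**Figure D4:**
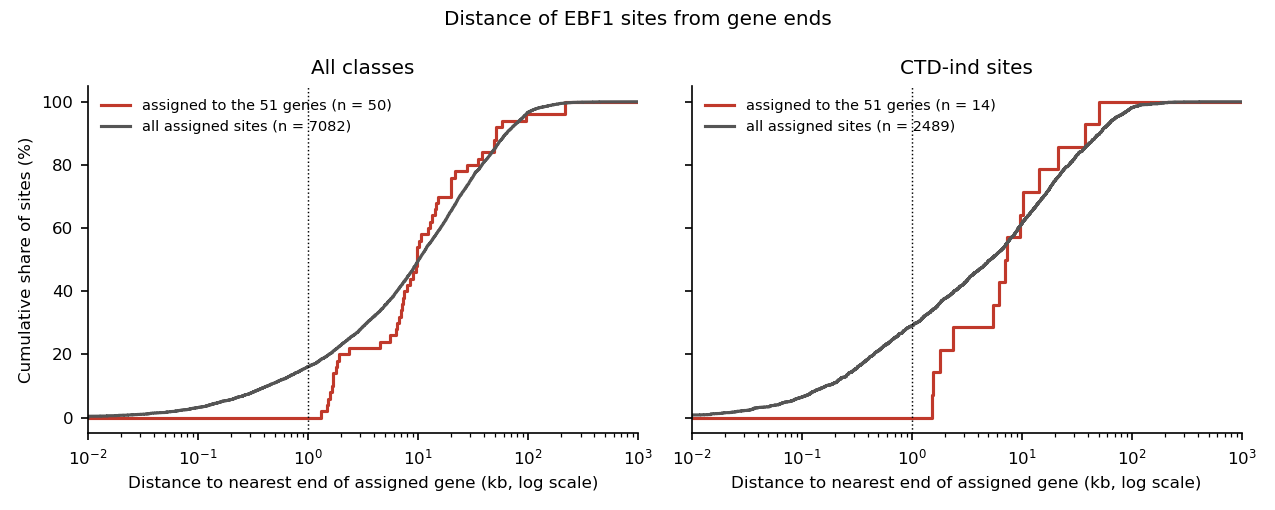
Cumulative share of sites (%) by distance of the site centre from the nearest end of its assigned gene (kb, log scale), for all classes on the left and CTD-ind sites on the right, at the 51 guidance genes (red) and over all assigned sites (grey). The dotted line marks 1 kb, and distances under 10 bp are drawn at 10 bp. Both red lines stay at 0 up to 1 kb, where the grey lines have reached 16.1% and 29.0%, and in the left panel the lines cross near their medians of 9.73 and 10.2 kb.

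Grouping along the chromosome came from 4 of the 51 genes. Of the 50 sites, 18 (36.0%, 22.9 to 50.8%) lay in runs as defined at Sema7a, against 15.4% of all sites. They came from 5 runs, with 7 sites at Plxna1, 6 at Sema7a, 3 at Sema3g and 2 at Ephb4. With gaps under 5 kb the share was 10.0% (3.33 to 21.8%), against 5.51% of all sites, which lies inside the interval. With gaps under 25 kb it was 60.0%, against 29.2%, and the 30 sites then came from 9 runs, so further sites joined. Sema7a and Ephb4 were singled out with their clusters known, so this share describes the set and was not tested.

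Partners of these families were counted from a list of 64 genes. Of 18 genes of Eph signalling, 11 had a site (61.1%, against 19.6% of all protein-coding genes). Among them Vav2, an exchange factor for Rac, had 6 sites, the kinase gene Abl1 had 4 and Tiam1, another Rac exchange factor, had 3, all inside the genes. Several of these genes, Vav2 among them, also act in B-cell receptor signalling. The list had a median span of 104 kb, and 31.7% of all genes spanning 50 to 150 kb had a site. Of 18 genes of semaphorin and plexin signalling, with a median span of 98.0 kb, 2 had a site (11.1%), Fyn with 3 and Dpysl2 with 1. Of 11 coreceptors and other receptors, with a median span of 47.9 kb, 3 had one (27.3%). Cd72, the B-cell receptor of Sema4d, had 1 YmA-dep site and the neuropilin gene Nrp1 had 1 CTD-ind site. The growth factor receptor gene Kdr had 2 YmA-ind sites, 79478 and 80558 bp from the gene. None of the sites of Cd72, Nrp1 and Kdr lay inside its gene. Nrp2 and Itgb1 had no site. Of 17 genes of other guidance families, with a median span of 162 kb, 4 had a site (23.5%). Slit1 had 7, Ntn1 had 3, and Unc5a and Unc5b had 1 each, while the Slit receptor genes Robo1, Robo2, Robo3 and Robo4 had none.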

How the data were processed

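The file is a list of EBF1 sites that the authors deposited for 1 of 5 libraries. Per the file headers it gives chromosome, start, end, name and a deepTools group, so the values are positions in bp and no site has a value of its own. The submitters' processing notes name Bowtie2, SAMtools, deepTools and the build GRCm38 (mm10). How peaks were called and how the width was fixed is not stated there.

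Positions are printed 1-based. Of the gene table, 345 entries on scaffolds were left out, which kept 49209 genes. Starts and strands came from promoter windows, held by 80.3% of protein-coding genes. Each site was assigned by its centre (limit 100 kb). In a run, at least 3 sites followed each other with gaps, taken from the end of one to the start of the next, under 0.5 times 25 kb. Python 3.11.15, pandas 2.3.3 and scipy 1.17.1 were used. Assignment and runs were checked on simulated sites. A count of 0 was also given a limit of 3 counts of the total, apart from the exact interval.

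The genes, lists and distances were chosen with earlier results of these data known. All genes with a site are named, others by family. The genes with printed sequence were chosen after their values were seen, since no window held a site. Alternatives changed the assignment, the distances, the motif and the genes included.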

Additional observations from a re-analysis of the deposited data

How the results depend on the processing

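A site was found at 21 genes, and at 20 with sites inside or within 10 kb (22.3% of all protein-coding genes), 21 within 20 kb, 21 with no limit and 17 by nearest start, where 45 of the 51 genes had a start and could be counted. The share over all protein-coding genes was counted only for the 100 kb rule (19.6%) and the 10 kb rule. Whether the set differs from all genes under the other rules was not tested. The sites numbered 50, and 48, 47, 52 and 37 under the same alternatives. The CTD-ind share of 28.0% ranged from 23.8% (without Sema7a and Ephb4) to 33.3% (within 10 kb). Sites near a gene end went from 0% within 1 kb, and 0% within 0.5 kb, to 22.0% within 2.5 kb. The share in runs was 10.0% with gaps under 5 kb (5.51% of all sites) and 60.0% with gaps under 25 kb (29.2%), so its size follows the gap, as the alternative itself requires. The motif share was 3.39% with T before and A after the core. Per gene, the 10 kb flank moved 4 of 21 counts by over 1.5 times, at Ephb4 (5 sites), Plxnb2 (2), Plxna1 (5) and Ephb1 (0), and no limit moved 1, Sema6d (2). By nearest start, added per gene after seeing the data, 7 of the 20 genes with a start moved, Ephb4 (8), Sema7a (3), Plxnc1 (1), Plxnd1 (1), and Epha5, Epha6 and Sema3d (0 each). No paired analysis was possible because there is 1 library with a file. No library could be left out. Depth is unknown.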
